A study of Mus musculus with 6 samples.

Results

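Bcat1 and 9 further genes of branched-chain amino acid breakdown (Bcat2, Bckdha, Bckdhb, Bckdk, Dbt, Dld, Ivd, Mccc1 and Mccc2) were followed through 6 RNA-seq libraries of mouse fibroblast clones, as 10 of 32028 annotated genes. They were chosen by symbol, after the near-complete loss of Bcat1 in the knockout clones had been seen, so their own differences between the genotypes are given as descriptions. Whether a gene passed the fit over all genes (adjusted p of 0.05, edgeR) is stated for some of them as a part of that description and supports nothing. The knockout group consists of 3 clones raised from Macf1flox/flox mice, in which both loxP-flanked alleles of Macf1, the gene of a giant linker of actin filaments and microtubules, were recombined (Macf1-/-). The het group consists of 3 clones raised from Macf1flox/+ mice, with a recombined and an intact allele (Macf1-/+). Both groups came from mouse embryonic fibroblasts that were immortalized with SV40 large T antigen. Both were then exposed to AAV8-CMV-Cre, an adeno-associated virus in which the broadly active CMV promoter drives Cre recombinase. Colonies were grown from single cells, so each clone descends from 1 cell, and poly(A) RNA was taken from confluent cultures. Clones of the 2 genotypes stem from mice of different genotype, so genotype and origin cannot be told apart. The labels do not say how many embryos gave the clones, so the spread is between clones and may not stand for the spread between animals.

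Leucine, isoleucine and valine are broken down along a shared route. An aminotransferase first moves their amino group to alpha-ketoglutarate, which yields glutamate and branched-chain keto acids, and the reaction can run both ways. BCAT1 does this in the cytosol and is known from embryonic tissue, brain and many tumours, while BCAT2 does it in mitochondria of most tissues. The mitochondrial branched-chain keto acid dehydrogenase complex then commits the keto acids to oxidation, and each amino acid continues on its own branch. IVD and methylcrotonyl-CoA carboxylase belong to the leucine branch.

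The libraries held 15661342 to 18209673 estimated counts each. Macf1 itself averaged 331 ± 27.9 CPM (counts scaled to library size) in knockout clones and 656 ± 66.6 CPM in het clones (SD, n = 3 each; log2 fold change -0.99, SE 0.13, adjusted p = 0.00307, edgeR). These counts cover the whole gene and not the deleted exons alone. From the deposited FPKM the difference was smaller, -0.54 on log2(FPKM + 1) and -0.55 on log2(FPKM + 0.1). Of 12745 genes tested, 1771 were higher and 1814 lower in knockout clones at an adjusted p of 0.05 (edgeR), and 1892, 1566 and 2227 genes passed without knockout replicate 1, knockout replicate 2 and het replicate 2. Over all genes, log2 CPM correlated at 0.977 to 0.994 among knockout clones, 0.948 to 0.984 among het clones, lowest for het replicate 1, and 0.881 to 0.896 between the groups. The label of fibroblasts fitted the clones only in part. Of 10 fibroblast markers 8 were tested, and 6 of these were lower in knockout clones, with a median log2 fold change of -2.08. Col1a1, a chain of type I collagen, stood at 7.4 ± 5.75 CPM in knockout clones and at 1230 ± 245 CPM in het clones. Col1a2, its partner chain, stood at 0.816 ± 0.436 CPM in knockout clones and at 1060 ± 786 CPM in het clones. Vim, the mesenchymal filament gene, stood at 2870 ± 1110 CPM in knockout clones and at 2430 ± 350 CPM in het clones. Fn1 was the most abundant fibroblast marker, with means of 4270 CPM (knockout) and 5770 CPM (het). Vim and Fn1 were the tested fibroblast markers that did not pass (adjusted p = 0.612 and 0.121, edgeR). S100a4, among the 6 lower markers, averaged 484 CPM (knockout) and 717 CPM (het). The untested markers were low in both groups. Thy1 and Dcn had 0 CPM in every knockout clone and reached at most 0.0598 and 1.02 CPM in a het clone. The fibroblast markers summed to 6010 to 8620 CPM in knockout clones and to 9700 to 13200 CPM in het clones. The 7 epithelial markers summed to 0.246 to 0.488 CPM in knockout clones and to 0.3 to 1.24 CPM in het clones. Endothelial, blood and muscle markers summed to at most 5.17 CPM in knockout clones and 6.21 CPM in het clones. Neural markers summed to 2.63 to 3.41 CPM in knockout clones and 6.29 to 15.3 CPM in het clones. Single markers of other types that passed were Des of muscle, higher, and Tubb3 of neurons, lower. Among the defining markers Adgre1 and Cd3e of blood, Myod1 and Myog of muscle and Rbfox3 of neurons had no counts in any clone. The part of these markers in the results below was not tested. In bulk RNA, fewer expressing cells and less RNA per cell cannot be told apart.

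Bcat1, the cytosolic aminotransferase gene (ENSMUSG00000030268; chromosome 6, 144993835 to 145076184, minus strand, GRCm38), was almost silent in knockout clones. It stood at 0.488, 0.677 and 0.362 CPM in knockout replicates 1, 2 and 3, against 145, 113 and 103 CPM in het replicates 1, 2 and 3. All knockout clones were near 0 and all het clones were above 100 CPM, so the groups lay far apart. These levels rested on 26 estimated counts in the knockout libraries together and 6063 in the het libraries. Scaled to library size, summed counts were 240-fold lower in knockout clones, with an exact 95% interval of 164 to 368 that covers counting error only. The log2 fold change was -7.88 (SE 0.26), the 103rd lowest of the 12745 genes. On the log2(FPKM + 1) scale, whose pseudocount compresses low levels, the difference was -5.31.

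Bcat1 has 2 RefSeq start sites, and the windows from 250 bases before to 50 bases after each are shown because transcripts from both sites were near 0 in knockout clones. They were taken from RefSeq on GRCm38.p6 and are written 5′ to 3′ on the minus strand, with CpG dinucleotides in capitals. The upstream window is chr6:145076108-145076407 and the downstream window, inside the gene, is chr6:145048763-145049062.
Bcat1 upstream: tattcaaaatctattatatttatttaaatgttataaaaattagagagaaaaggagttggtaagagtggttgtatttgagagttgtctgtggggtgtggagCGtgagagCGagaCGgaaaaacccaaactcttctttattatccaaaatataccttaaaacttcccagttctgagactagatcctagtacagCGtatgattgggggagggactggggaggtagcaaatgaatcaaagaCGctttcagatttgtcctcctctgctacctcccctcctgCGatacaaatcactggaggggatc
Bcat1 downstream: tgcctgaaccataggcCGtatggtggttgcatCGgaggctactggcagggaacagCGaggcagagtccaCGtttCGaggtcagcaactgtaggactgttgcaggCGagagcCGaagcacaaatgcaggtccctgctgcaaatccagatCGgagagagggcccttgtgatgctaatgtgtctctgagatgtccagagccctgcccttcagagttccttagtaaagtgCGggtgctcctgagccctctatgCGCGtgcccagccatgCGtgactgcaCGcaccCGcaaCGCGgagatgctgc
The upstream window holds 6 CpGs and 41% G and C bases, and 43.6% of the 32851 promoter windows in the RefSeq table hold fewer CpGs. The downstream window holds 16 CpGs and 58.7% G and C bases, more CpGs than 67% of the windows. The motif CACGTG, an E-box that reads the same on both strands, is in neither window and in 7.15% of all windows. TATAAA, searched on both strands, occurs in the upstream window, near its 5′ end and far from the start, and in 13.6% of all windows. CCAAT, searched likewise, occurs in the upstream window and in 37.4% of all windows. TGATGNAA, also searched on both strands, is in neither window and in 3.97% of all windows.

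The estimated counts resolved 10 annotated Bcat1 transcripts, of which 8 had counts. Bcat1-203 starts at position 145076184, 27 bases upstream of the RefSeq start used for the upstream window. It carried most of the signal, with 0.2, 0.29 and 0.152 CPM in knockout clones and 117, 93.1 and 90.9 CPM in het clones. Bcat1-201 begins exactly at the downstream start, 145048812, and stood at 0, 0.281 and 0.0786 CPM in knockout clones, against 18.3, 11.6 and 10.3 CPM in het clones. Both start sites therefore had high levels in every het clone and levels below 0.3 CPM in every knockout clone. Transcripts from the upstream site held 83.9% of the Bcat1 counts in het clones. Bcat1-206, a non-coding transcript, varied among het clones, with 0.224, 0 and 0 CPM in knockout clones and 5.44, 6.5 and 0.849 CPM in het clones. In the authors' deposited table the log2 fold changes of these transcripts were -8.81 for Bcat1-203, -6.71 for Bcat1-201 and -5.71 for Bcat1-206. Transcripts of a gene share exons, so their separate levels are estimates. Antisense genes Gm26666 and Gm15687 are annotated over Bcat1 and were not among the genes counted. The sources used here do not say whether counting used strand, so their reads cannot be told apart from those of Bcat1.

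**Figure D1:**
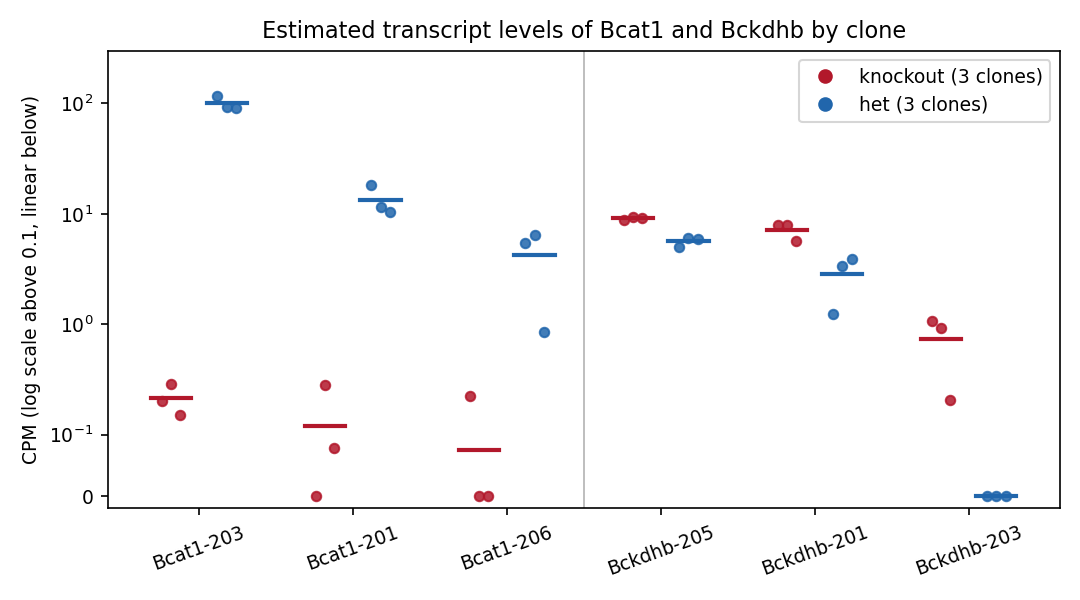
Estimated level of single transcripts in CPM (y axis, logarithmic above 0.1 and linear below) for Bcat1 and Bckdhb; points are clones, bars are means, knockout red and het blue. Bcat1-203 lies at 0.152 to 0.29 CPM in knockout clones and 90.9 to 117 CPM in het clones, while both main Bckdhb transcripts are higher in knockout clones.

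Bcat2, the mitochondrial aminotransferase gene (ENSMUSG00000030826; chromosome 7, 45570153 to 45589711), was also lower. It stood at 11.9, 13.6 and 13.3 CPM in knockout clones, against 30.5, 27.9 and 25.2 CPM in het clones. The groups did not overlap, and all 3 knockout clones lay within 2 CPM of each other. The log2 fold change was -1.11 (SE 0.13). Bcat2-201 carried this difference, with 11 ± 1.79 CPM in knockout clones and 27.1 ± 3.25 CPM in het clones. The shorter Bcat2-202 went the other way, with 1.96 ± 1.24 CPM in knockout clones and 0.802 ± 0.592 CPM in het clones, and the clones overlapped.

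Levels of different genes were compared per length, as summed FPKM (fragments scaled to transcript length and library size) of those transcripts that have deposited FPKM. Bcat1 and Bcat2 together summed to 5.8, 6.49 and 7.7 FPKM in knockout clones, against 71.6, 61.5 and 52.9 FPKM in het clones. The aminotransferase mRNA that was measured in knockout clones was thus 10.7% of the het level. The FPKM of Bcat2 cover only Bcat2-201, which held 85.5% of the Bcat2 counts in knockout clones and 97.2% in het clones. Those of Bcat1 include the non-coding Bcat1-206. The part of this unequal cover in the sum and in the shares below was not tested. Bcat1 made up 3.14% ± 2.68 of the summed FPKM in knockout clones and 74.8% ± 1.19 in het clones (SD, n = 3 each). The knockout shares rest on 8, 11 and 7 Bcat1 counts in replicates 1, 2 and 3, so their spread is not resolved. Knockout replicate 1 had the highest of them, 6.13%, and was the only knockout clone with counts for Bcat1-206 (0.224 CPM). The het clones were close to each other in this share, at 73.7% to 76.1%, and Bcat2 was the larger part in every knockout clone.

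**Figure D2:**
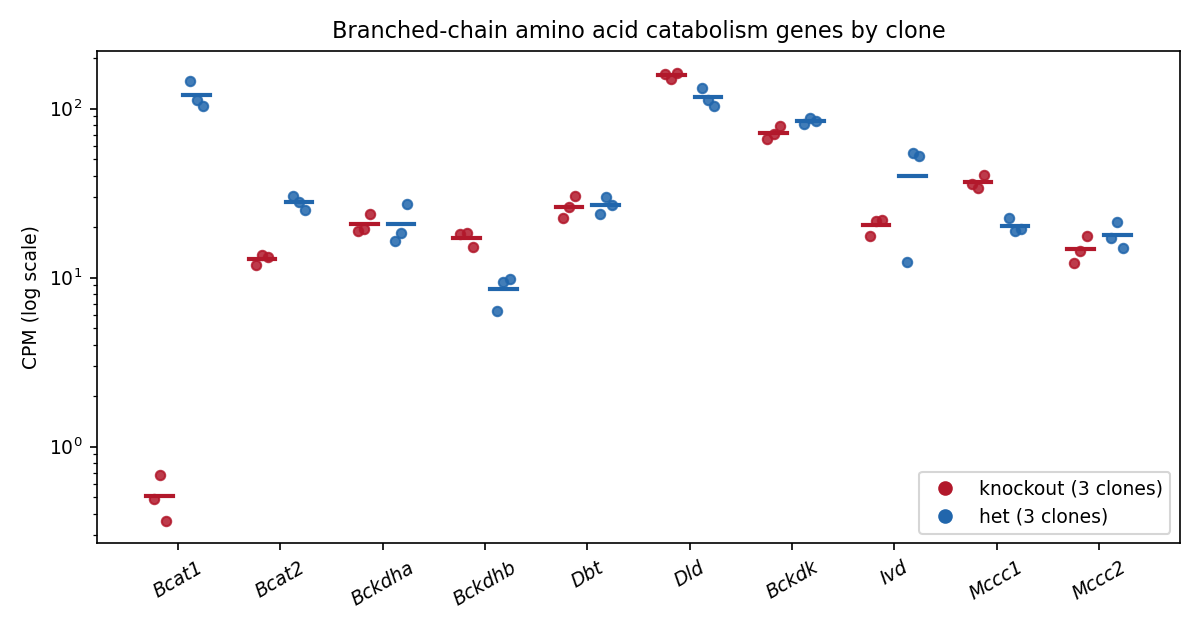
Level of each of the 10 genes in CPM (y axis, logarithmic) in every clone; points are clones, bars are means, knockout red and het blue. Bcat1 shows the widest gap, Bcat2 is lower and Bckdhb and Mccc1 are higher in knockout clones, and the het clones of Ivd split into 12.3 CPM against 54.9 and 52.5 CPM.

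The dehydrogenase complex did not follow the aminotransferases. Bckdha, the alpha chain of its decarboxylase (ENSMUSG00000060376; chromosome 7, 25629946 to 25658981), stood at 18.9, 19.3 and 23.8 CPM in knockout clones, against 16.5, 18.4 and 27.2 CPM in het clones. The clones overlapped, and the log2 fold change was 0 (SE 0.21). Bckdhb, the beta chain of the same decarboxylase (ENSMUSG00000032263; chromosome 9, 83925145 to 84124240), was higher, at 18, 18.3 and 15.2 CPM in knockout clones, against 6.34, 9.39 and 9.84 CPM in het clones. The lowest knockout clone lay above the highest het clone, and the log2 fold change was 1.01 (SE 0.21). In FPKM, Bckdhb made up 51.2% ± 5.01 of the summed alpha and beta chain mRNA in knockout clones and 35.6% ± 4.24 in het clones. Dbt, the transacylase core (ENSMUSG00000000340; chromosome 3, 116513070 to 116549981), overlapped between the groups, with 22.4, 26 and 30.5 CPM in knockout clones and 23.8, 29.9 and 26.8 CPM in het clones. Its log2 fold change was -0.03 (SE 0.15).

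Bckdhb was measured from 2 main start sites, and their windows are shown because transcripts from both were higher in knockout clones while the windows differ in base composition. They lie on the plus strand at chr9:83924887-83925186 and chr9:83948531-83948830 (RefSeq, GRCm38.p6), with CpGs again in capitals.
Bckdhb upstream: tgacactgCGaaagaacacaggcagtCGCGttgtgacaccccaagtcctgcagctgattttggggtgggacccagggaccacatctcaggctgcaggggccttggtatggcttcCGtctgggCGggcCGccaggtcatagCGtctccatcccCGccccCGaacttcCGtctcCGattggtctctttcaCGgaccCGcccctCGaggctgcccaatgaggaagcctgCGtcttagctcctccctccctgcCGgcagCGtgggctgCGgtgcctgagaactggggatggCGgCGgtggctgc
Bckdhb downstream: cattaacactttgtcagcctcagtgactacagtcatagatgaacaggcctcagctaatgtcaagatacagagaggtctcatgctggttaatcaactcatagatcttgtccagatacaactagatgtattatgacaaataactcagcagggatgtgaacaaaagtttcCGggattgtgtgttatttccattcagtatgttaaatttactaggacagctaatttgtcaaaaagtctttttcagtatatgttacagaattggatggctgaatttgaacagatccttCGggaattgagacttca
The upstream window holds 20 CpGs, more than 73.5% of all windows, and the downstream window holds 2, more than 14.1%. Neither holds CACGTG. Bckdhb-201, which begins at position 83925150 inside the upstream window, stood at 7.96, 7.85 and 5.68 CPM in knockout clones, against 1.25, 3.37 and 3.89 CPM in het clones. Bckdhb-205 begins at the downstream start and stood at 8.71, 9.37 and 9.25 CPM in knockout clones, against 5.05, 6.01 and 5.92 CPM in het clones. Neither transcript overlapped between the groups. The non-coding Bckdhb-203 was low, with 1.08, 0.916 and 0.204 CPM in knockout clones and 0 counts in every het clone. In the authors' deposited table the log2 fold changes were 1.36 for Bckdhb-201 and 0.72 for Bckdhb-205.

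Dld encodes dihydrolipoyl dehydrogenase (ENSMUSG00000020664; chromosome 12, 31331277 to 31351453), which serves this complex as well as the pyruvate and alpha-ketoglutarate dehydrogenases. It stood at 160, 150 and 162 CPM in knockout clones, against 133, 113 and 103 CPM in het clones. The groups did not overlap, and the log2 fold change was 0.44 (SE 0.11). For genes around it, the median log2 fold change was 0.42 over 31 tested genes within 5 Mb and 0.41 over 423 tested genes of chromosome 12. The part of this regional shift in the Dld value was not tested. For the other 9 genes the median within 5 Mb lay between -0.4 around Bcat1 (44 genes) and 0.26 around Mccc1 (47 genes). Bckdk, the kinase that inactivates the complex by phosphorylation (ENSMUSG00000030802; chromosome 7, 127904082 to 127910221), stood at 65.8, 70.4 and 78.6 CPM in knockout clones, against 80.8, 88.3 and 83.9 CPM in het clones. Its groups did not overlap either, but the gap was small, with a log2 fold change of -0.24 (SE 0.1), and it did not pass over all genes.

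In the leucine branch the genes differed in unlike ways. Ivd, isovaleryl-CoA dehydrogenase (ENSMUSG00000027332; chromosome 2, 118861954 to 118882909), stood at 17.5, 21.7 and 21.9 CPM in knockout clones, against 12.3, 54.9 and 52.5 CPM in het clones. Het replicate 1 lay below every knockout clone and the other het clones lay far above them, and the SD of the het clones was 59.9% of their mean. The log2 fold change was -0.97 (SE 0.53), and its size depended on the clones and the scale. It was -1.4 without het replicate 1, -0.68 without het replicate 2, -0.73 without het replicate 3, -0.7 with limma-voom, -0.48 on log2(FPKM + 1) and -0.49 on log2(FPKM + 0.1). The split was present in the main coding transcript, Ivd-201, with 11.6, 13.7 and 15 CPM in knockout clones and 8.51, 36.1 and 37.3 CPM in het clones. It was also present in the non-coding Ivd-207, with 2.89, 3.55 and 3.16 CPM in knockout clones and 1.95, 8.26 and 6.36 CPM in het clones.

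Mccc1, the biotin-carrying alpha chain of methylcrotonyl-CoA carboxylase (ENSMUSG00000027709; chromosome 3, 35959312 to 36000678), was higher in knockout clones, at 35.7, 34 and 40.5 CPM against 22.6, 18.9 and 19.4 CPM in het clones. The groups did not overlap, and the log2 fold change was 0.86 (SE 0.12). Mccc2, the beta chain of the same enzyme (ENSMUSG00000021646; chromosome 13, 99948530 to 100015639), overlapped, with 12.2, 14.3 and 17.6 CPM in knockout clones and 17.1, 21.4 and 15 CPM in het clones. Its log2 fold change was -0.28 (SE 0.2). In FPKM, Mccc1 made up 64.8% ± 4.32 of the summed alpha and beta chain mRNA in knockout clones and 41.8% ± 6.81 in het clones. The groups did not overlap in this share, nor in that of Bckdhb. The FPKM of Mccc1 cover only Mccc1-201, which held 84.6% of the Mccc1 counts in knockout clones and 72% in het clones. The part of this in the Mccc1 share was not tested.

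**Figure D3:**
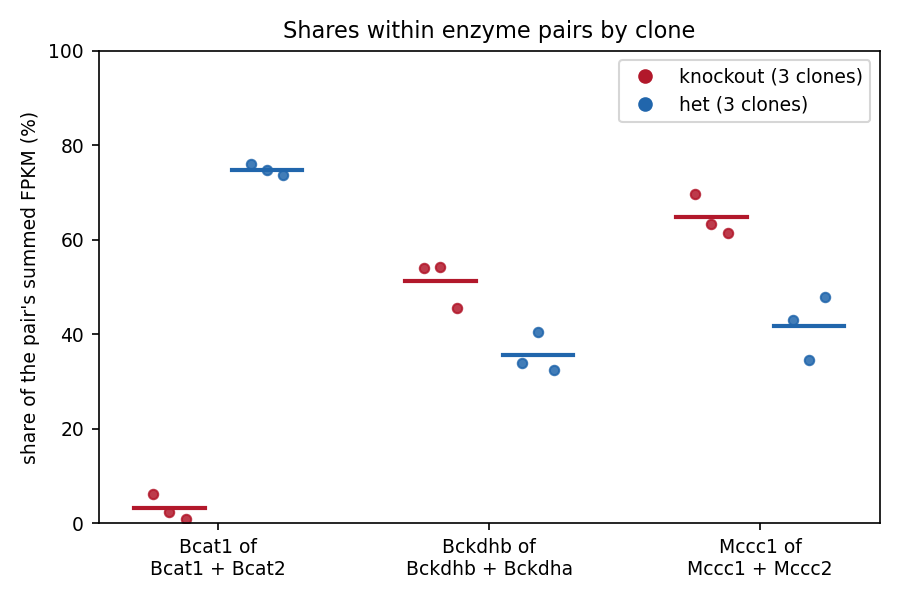
Share of the first-named gene in the summed FPKM of an enzyme pair (y axis, percent) in every clone; points are clones, bars are means, knockout red and het blue. Bcat1 makes up 0.944% to 6.13% of its pair in knockout clones and 73.7% to 76.1% in het clones, and the shares of Bckdhb and Mccc1 are higher in knockout clones.

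All 10 genes passed the filter on low counts. In the fit over all genes 2 of them were past the threshold as lower (Bcat1 and Bcat2), 3 as higher (Bckdhb, Dld and Mccc1) and 5 were not. Over all genes tested 28.1% passed. In 6 of the 10 (Bcat1, Bcat2, Bckdhb, Bckdk, Dld and Mccc1) no knockout clone lay within the range of the het clones or the reverse, as in 47.5% of all genes tested. These counts describe the clones and test nothing, since the genes were chosen in this contrast. Antisense genes not among those counted are also annotated over Bcat2 (0610005C13Rik), Mccc1 (Gm15952 and Mccc1os) and Bckdhb (Gm46124), so the limit on strand given for Bcat1 holds for these genes too. Dld was not past the threshold without knockout replicate 1, 2 or 3 or het replicate 2 or 3, nor was Bckdhb without knockout replicate 1 or 2, whereas Ivd was past it without het replicate 1. Accordingly 3 of the 10 were past it without knockout replicate 1 or 2, and the count was 6 at most with any single clone left out.

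The order of the levels per length differed in part between the groups. In knockout clones it ran from Dld at 72.8 ± 3.98 FPKM and Bckdk at 40 ± 3.45 FPKM to Mccc1 at 13.2 ± 1.03, Ivd at 12.1 ± 1.02, Bckdhb at 11.8 ± 0.712 and Bckdha at 11.3 ± 1.64 FPKM. Dbt at 7.89 ± 1.21, Mccc2 at 7.19 ± 1.39 and Bcat2 at 6.47 ± 1.1 FPKM followed, and Bcat1 came last at 0.194 ± 0.146 FPKM. In het clones Dld (52.4 ± 6.07 FPKM), Bckdk (47 ± 2.94 FPKM) and Bcat1 (46.5 ± 7.78 FPKM) led and overlapped with each other. Ivd followed at 20.6 ± 12.5, then Bcat2 at 15.5 ± 1.62 and Bckdha at 11.1 ± 3.2 FPKM. Mccc2 at 8.49 ± 1.51, Dbt at 8.03 ± 0.966, Bckdhb at 6.06 ± 1.41 and Mccc1 at 6.04 ± 0.664 FPKM came last. Neighbours in the order had overlapping clones, except between Dld and Bckdk, Bckdk and Mccc1, Bckdha and Dbt, and Bcat2 and Bcat1 in knockout clones, and between Bcat1 and Ivd in het clones. Dld and Bckdk thus led in both groups, while Mccc1 came next in knockout clones and last in het clones. The sums cover unlike sets of transcripts, so the places are approximate. FPKM were given for 4 of 8 Ivd transcripts, non-coding ones among them, and for 1 of 8 Mccc1 transcripts.

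The wider pathway was examined through 7 lists with 87 genes in all, none of them among the 10 (Pcca and Pccb stand in both the later-step and biotin lists). Of 75 tested genes 4 were higher and 17 lower in knockout clones (28% passed, against 28.1% of all genes tested), and the median log2 fold change was -0.26, against 0 over all genes. On log2(FPKM + 1) with limma the split was 8 higher and 18 lower, and on log2(FPKM + 0.1) it was 8 higher and 17 lower. Among enzymes of the later breakdown steps 5 of 18 fell and the other 13 did not pass (median log2 fold change -0.29). Echs1, the enoyl-CoA hydratase of the valine and isoleucine branches, stood at 32.1, 30.4 and 37.1 CPM in knockout clones, against 66, 61.7 and 60.4 CPM in het clones. The clones did not overlap, and the log2 fold change was -0.92 (SE 0.11, adjusted p = 0.0023, edgeR). Auh, the methylglutaconyl-CoA hydratase that acts after methylcrotonyl-CoA carboxylase, fell to 15.8 ± 2.67 CPM in knockout clones, compared with 25.8 ± 3.29 CPM in het clones (adjusted p = 0.0232, edgeR). Mmab, which makes the cobalamin cofactor of methylmalonyl-CoA mutase, fell to 22.5 ± 3.56 CPM in knockout clones, compared with 39.1 ± 6.54 CPM in het clones (adjusted p = 0.0157, edgeR). Mmaa, which helps to load this cofactor, fell to 4.16 ± 0.551 CPM in knockout clones, compared with 7.89 ± 2.05 CPM in het clones (adjusted p = 0.041, edgeR). Hibch of the valine branch, named after its values were seen, fell to 13 ± 1.09 CPM in knockout clones, compared with 17.8 ± 0.717 CPM in het clones (adjusted p = 0.043, edgeR). Of these calls, that of Hibch ended whichever clone was left out (adjusted p = 0.0713 to 0.104) and without a filter on low counts (0.0946). That of Mmaa held in 5 of 14 alternatives. It ended with library totals (0.0584), without a filter (0.0561), on log2(FPKM + 1) (0.053, log2 fold change -0.58), on log2(FPKM + 0.1) (0.0563) and without any single clone other than het replicate 1. That of Auh ended without knockout replicate 1 or 2 or het replicate 2 or 3, and that of Mmab without knockout replicate 1 or 2.

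Of 11 tested carriers, leucine sensors and the dehydrogenase phosphatase, 1 rose, 1 fell and 9 did not pass (median -0.26). Slc25a44, the mitochondrial carrier of branched-chain amino acids, rose to 82.9 ± 0.692 CPM in knockout clones, compared with 61 ± 2.82 CPM in het clones (log2 fold change 0.44, adjusted p = 0.0103, edgeR). Sesn2, a leucine sensor, fell to 18.7 ± 0.993 CPM in knockout clones, compared with 32.6 ± 6.34 CPM in het clones (adjusted p = 0.0123, edgeR). Slc7a5, the main leucine importer of many growing cells, and Ppm1k, the phosphatase that activates the dehydrogenase, were named after their values were seen. Slc7a5 stood at 179, 157 and 68.4 CPM in knockout clones and 325, 249 and 180 CPM in het clones and did not pass (adjusted p = 0.132, edgeR). Ppm1k stood at 5.56, 7.26 and 14.4 CPM in knockout clones and 3.89, 3.77 and 4.51 CPM in het clones and did not pass either (adjusted p = 0.0593, edgeR). Neither gene overlapped between the groups, but the knockout clones were spread widely in both. Of 6 tRNA synthetases for these amino acids 3 fell and the other 3 did not pass (median -0.45). Lars, which loads leucine in the cytosol, fell to 147 ± 41.2 CPM in knockout clones, compared with 301 ± 79.6 CPM in het clones (adjusted p = 0.0306, edgeR). Lars2, its mitochondrial counterpart, fell to 141 ± 25.4 CPM in knockout clones, compared with 224 ± 36.8 CPM in het clones (adjusted p = 0.0304, edgeR). Iars, the cytosolic enzyme for isoleucine, fell to 204 ± 48.2 CPM in knockout clones, compared with 347 ± 63.8 CPM in het clones (adjusted p = 0.0367, edgeR). The calls of Lars and Lars2 ended without knockout replicate 1 or 2 or het replicate 3, and that of Iars without knockout replicate 1 or 2 or het replicate 1 or 2. Those of Slc25a44 and Sesn2 ended without knockout replicate 2.

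The list of the other complexes that hold Dld also took in their kinases, phosphatases and lipoyl-making enzymes, and of its 19 tested genes 3 were higher, 3 were lower and 13 did not pass (median -0.16). Pdhb, Dlst and Gcsh among these 6 encode parts of the complexes, while Pdk4, Lias and Pdp1 do not. Pdhb, the beta chain of pyruvate dehydrogenase, fell to 60.7 ± 4.87 CPM in knockout clones, compared with 103 ± 2.56 CPM in het clones (log2 fold change -0.76, adjusted p = 0.00262, edgeR). Dlst, the core of the alpha-ketoglutarate dehydrogenase, rose to 277 ± 13.6 CPM in knockout clones, compared with 187 ± 16.6 CPM in het clones (log2 fold change 0.57, adjusted p = 0.00876, edgeR). It lies on chromosome 12 like Dld. Pdk4, a kinase that inhibits pyruvate dehydrogenase, rose to 7.58 ± 2.45 CPM in knockout clones, compared with 1.73 ± 1.13 CPM in het clones (log2 fold change 2.12, or 2.81 without het replicate 2 and 1.1 on log2(FPKM + 1); adjusted p = 0.0204, edgeR). Lias, which makes the lipoyl group of these complexes, rose to 64.4 ± 4.66 CPM in knockout clones, compared with 48.2 ± 2.65 CPM in het clones (adjusted p = 0.022, edgeR). Gcsh of the glycine cleavage system and Pdp1, a pyruvate dehydrogenase phosphatase, fell as well and were named after their values were seen (log2 fold changes -0.74 and -1.95, adjusted p = 0.0407 and 0.0465, edgeR). Pdp1 varied among het clones, at 12.6 ± 2.98 CPM in knockout clones and 48.5 ± 37.1 CPM in het clones, and its log2 fold change was -1.13 without het replicate 3. Its call ended with limma-voom (adjusted p = 0.0971), without a filter in edgeR (0.124) and without knockout replicate 1, 2 or 3 or het replicate 2. That of Gcsh ended without a filter (0.0506) and without knockout replicate 2 or any single het clone. That of Pdk4 ended without knockout replicate 1 or 2 or het replicate 3, and that of Lias without any of these or het replicate 2.

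Among other aminotransferases and glutamate enzymes 2 of 12 tested genes fell and the other 10 did not pass (median -0.2). Gpt2, the mitochondrial alanine aminotransferase, stood at 7.33, 9.72 and 8.53 CPM in knockout clones, against 61.9, 29.6 and 36.3 CPM in het clones (log2 fold change -2.32, SE 0.3, adjusted p = 0.00291, edgeR). Glul, glutamine synthetase, stood at 1.89, 1.54 and 0.982 CPM in knockout clones, against 15.3, 7.98 and 14 CPM in het clones (log2 fold change -3.08, SE 0.37, or -1.8 on log2(FPKM + 1); adjusted p = 0.00231, edgeR). Neither gene overlapped between the groups. Of 8 genes for biotin enzymes and biotin supply 3 fell and the other 5 did not pass (median -0.56). Acaca, acetyl-CoA carboxylase, fell to 172 ± 28.6 CPM in knockout clones, compared with 260 ± 12 CPM in het clones (adjusted p = 0.0207, edgeR). Pcx, pyruvate carboxylase, fell to 33.6 ± 11.2 CPM in knockout clones, compared with 62.2 ± 12.1 CPM in het clones (adjusted p = 0.0458, edgeR). Slc5a6, the biotin importer, fell to 29.3 ± 7.26 CPM in knockout clones, compared with 46.4 ± 5.21 CPM in het clones (adjusted p = 0.047, edgeR). The call of Slc5a6 ended without a filter (0.0509), on log2(FPKM + 0.1) (0.0501) and without knockout replicate 1 or 2 or het replicate 2 or 3. That of Pcx held in 7 of 14 alternatives, and ended with library totals (0.0692), without a filter (0.0591) and without any single clone other than knockout replicate 3. That of Acaca ended without knockout replicate 1 or 2 or het replicate 2 or 3. Of 5 regulators with a known link to these genes 3 were tested (median -0.3). Of these 0 passed in edgeR, DESeq2 or limma-voom, nor did any have an unadjusted p under 0.05 in edgeR. Klf15 and Ppara were too low to be tested and were named after their values were seen. Klf15 stood at 0 CPM in every knockout clone and at 2.21, 0.281 and 0.502 CPM in het clones. Ppara stood at 0, 0.0615 and 0.0517 CPM in knockout clones and at 0.299, 0.618 and 0.878 CPM in het clones. Myc, a known activator of Bcat1, stood at 74.3 ± 32.6 CPM in knockout clones and 91.7 ± 14.6 CPM in het clones (adjusted p = 0.557, edgeR). Atf4, which governs amino acid stress responses, stood at 245 ± 46.7 CPM in knockout clones and 325 ± 57.5 CPM in het clones (adjusted p = 0.144, edgeR). Ppargc1a, the remaining tested regulator, was also named after its values were seen and went the other way. It stood at 10.9, 13.6 and 27.4 CPM in knockout clones and at 6.94, 7.81 and 16 CPM in het clones. The clones overlapped, and it did not pass (log2 fold change 0.76, adjusted p = 0.253, edgeR). Of the 21 calls in the lists, 13 ended without knockout replicate 1, 16 without knockout replicate 2, 10 without het replicate 2 and 11 without het replicate 3, which left 9, 5, 11 and 11 passing list genes in all, newly passing ones included. Those of Echs1, Pdhb, Dlst, Gpt2 and Glul held whichever clone was left out.

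**Figure D4:**
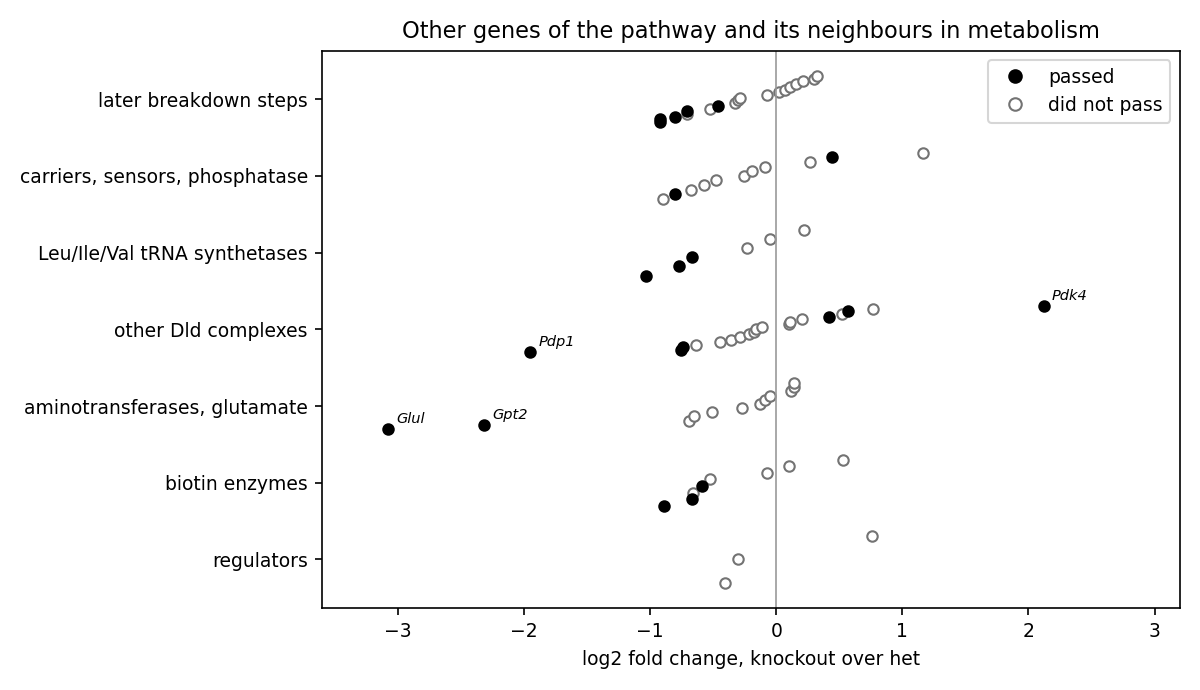
Log2 fold change of knockout over het (x axis) for each tested gene of the 7 lists (rows); filled points passed in edgeR and open points did not. Most filled points lie left of 0, with Glul at -3.08 and Gpt2 at -2.32, and Pdk4 at 2.12 lies farthest to the right.

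Of the genes near Bcat1 on chromosome 6, Sox5 was likewise near 0 in knockout clones, while those described on the other side showed no such gap. Within 1 Mb of either end lay 13 annotated genes with count data, of which 7 were tested, 1 was higher and 1 lower. Sox5, a transcription factor gene 212 kb below the lower end of Bcat1, had 0, 0 and 0.0517 CPM in knockout clones, against 11.4, 2.59 and 2.63 CPM in het clones. That is 1 count in knockout clones and 278 in het clones (adjusted p = 0.0044, edgeR). Scaled to library size, Sox5 was 286-fold lower in knockout clones, with an exact interval for counting error of 51 to 11400. Its fitted log2 fold change of -7.71 was -9.53 without knockout replicate 3 and -6.64 without het replicate 1. On the other side, Etfrf1, a regulator of the electron transfer flavoprotein that accepts electrons from IVD, stood at 8.97 ± 2.04 CPM in knockout clones and 13.8 ± 1.77 CPM in het clones, 135 kb away (adjusted p = 0.0718, edgeR). Casc1 measured 0.777 ± 0.188 CPM in knockout clones and 1.14 ± 0.366 CPM in het clones (adjusted p = 0.344, edgeR). Farther off, Rassf8 measured 70 ± 11 CPM in knockout clones and 88 ± 4.79 CPM in het clones (adjusted p = 0.105, edgeR). Sspn, which encodes a protein of the dystrophin complex, measured 10 ± 2.3 CPM in knockout clones and 12.8 ± 8.45 CPM in het clones (adjusted p = 0.608, edgeR). Bhlhe41, a circadian repressor gene 782 kb away, rose to 18 ± 4.02 CPM in knockout clones, compared with 7.03 ± 1.99 CPM in het clones (log2 fold change 1.35, SE 0.27, adjusted p = 0.0122, edgeR). Its call ended without knockout replicate 1 or 2 (adjusted p = 0.0512 and 0.0579, edgeR), and Etfrf1 passed without knockout replicate 3 (adjusted p = 0.0305, edgeR).

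**Figure D5:**
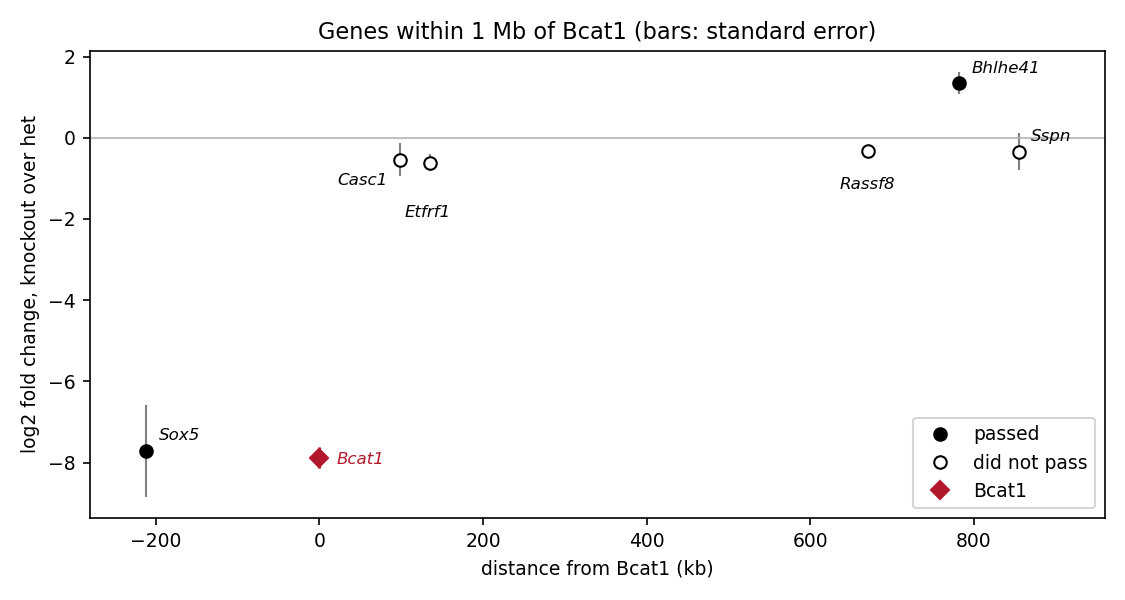
Log2 fold change of knockout over het (y axis, bars are standard errors) against distance from Bcat1 in kb (x axis) for 6 tested genes within 1 Mb; filled points passed in edgeR, open points did not, and the diamond is Bcat1. Sox5 lies near Bcat1 in size, while Etfrf1, 135 kb away, lies at -0.62.

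The genes described here, whose clone profiles were among the nearest to that of Bcat1, came from elsewhere in the genome. Likeness was the Euclidean distance between log2(CPM + 0.5) values over the 6 clones, each profile centred on its mean, and with such large gaps it mostly reflects the difference between the groups. They were Arsj, an arylsulfatase gene on chromosome 3 (distance 0.45), Rps3a3 on chromosome 13 (0.64), Tpm3-rs7 on chromosome 14 (0.65), and Hoxa11, a limb patterning gene on chromosome 6 (0.66). Arsj had 0 counts in every knockout clone, which allows up to 0.0577 CPM over the group, and stood at 57.5, 49 and 52.1 CPM in het clones. Hoxa11 likewise had 0 counts in every knockout clone and stood at 93.1, 42 and 44.5 CPM in het clones. All het clones of Arsj and Hoxa11 were at least 42 CPM. Tpm3-rs7 stood at 1.1, 1.11 and 0.569 CPM in knockout clones, against 223, 230 and 209 CPM in het clones. Rps3a3 and Tpm3-rs7 resemble other genes by name, so reads shared with near-identical copies make their levels uncertain.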

How the data were processed

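Libraries of 3 knockout and 3 het clones were made with a kit that keeps strand, as the labels' protocols say. Trimmomatic 0.36, kallisto 0.42.5, edgeR and build GRCm38.p4 are listed in the submitters' processing notes, which give them no role. The authors deposited estimated counts for 96626 transcripts, FPKM values for 24799 of them, and a transcript comparison with log2 fold changes and p-values, per the file headers. Its sign was that of knockout over het in 100% of 4471 transcripts beyond 2-fold.

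Estimated counts were summed per gene by GENCODE M21 (GRCm38), with 260 transcripts placed through the authors' table and 1153 left out (0.0174% to 0.0278% of a library), and rounded. The filter filterByExpr used a minimum count of 10 and a minimum total of 15. CPM were taken over TMM-scaled libraries. The test was edgeR 4.0.16 in R 4.3.3 (quasi-likelihood, robust, two-sided), and p-values were adjusted by the Benjamini-Hochberg method for 12745 genes, with a threshold of 0.05. Standard errors were derived from the F statistic. The test was also run on counts simulated from the means and dispersions of these data, and nothing here rests on that run. DESeq2 1.42.0 and limma 3.58.1 gave alternatives, besides other scalings, filters and single clones left out. No 2 libraries of a group agreed within sampling noise (lowest chi-square 12.2 per degree of freedom), and all were kept.

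The 10 genes and all lists were chosen with earlier results of these data known. Named were the 10 genes, Macf1, up to 4 passing genes per list by smallest adjusted p (for a list with fewer than 2, also its 2 most abundant remaining genes), every tested gene within 1 Mb of Bcat1 and the 5 nearest profiles, except 2 genes that are not reported here. Pyruvate carboxylase, listed under the symbol Pc, was matched to Pcx only after the files were seen. RefSeq windows (250 bases before to 50 after a start) matched 9 of the 10 genes, all but Dbt, with 12 windows.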

Additional observations from a re-analysis of the deposited data

How the results depend on the processing

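Leaving out 1 clone at a time gave 1566 to 3825 passing genes in all (3585 reported), 3 to 6 of the 10 genes (5 reported), 5 to 27 list genes (21 reported) and 1 to 3 neighbours of Bcat1 (2 reported). The counts over all genes, the 10 genes and the lists stayed within 1.5 times the reported ones with RLE scaling, library totals, both other filters, DESeq2, limma-voom and both FPKM scales, whereas 1 neighbour passed on log2(FPKM + 1) and 1 on log2(FPKM + 0.1), where Sox5 has no value. Etfrf1 also passed with DESeq2 (adjusted p = 0.0411) and Rassf8 with library totals (adjusted p = 0.0468, edgeR). Of the 10 genes, Bcat1, Bcat2, Bckdk, Mccc1 and Mccc2 kept their direction and side of the threshold in all 14 alternatives. The log2 fold change of Bcat1 lay between -8.13 and -5.31 and that of Bcat2 between -1.26 and -1.04. The log2 fold changes of some genes that did not pass changed sign. That of Bckdha was 0.02 without a filter, 0.04 with limma-voom, 0.05 and 0.06 on the FPKM scales and -0.15 to 0.24 with a clone left out. With a clone left out Dbt ranged from -0.15 to 0.07, Myc from -0.53 to 0.02 and Sspn from -0.62 to 0.35. Myc changed sign only without knockout replicate 3, and Sspn only without het replicate 1. The cause of these changes was not tested. The authors' deposited table, which tests single transcripts, has a passing transcript for 4 of the 10 genes. No paired analysis was possible because the labels give the clones no shared replicate numbers. Bcat1 in knockout clones rests on 26 counts, so differences among these clones are not resolved at this depth.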
